A study of Mus musculus with 2 samples.

Results

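Calcium that enters a neuron is read by calmodulin, and 10 genes that act on or through it were followed in the developing mouse cortex. They encode the subunits of Ca2+/calmodulin-dependent kinase II (Camk2a, Camk2b, Camk2d and Camk2g), its inhibitor proteins (Camk2n1 and Camk2n2), kinase IV (Camk4), the kinases that switch kinase IV on (Camkk1 and Camkk2), and neurogranin (Nrgn). They were chosen by name for these roles, as 10 of 55536 annotated genes, and the annotated transcripts of the 4 Camk2 genes were followed with them. The data were 2 total RNA-seq libraries of left cerebral cortex from female B6CASTF1/J mice aged 4 days, the first-generation hybrid of C57BL/6J and CAST/EiJ, with 300.0 ng of RNA in each library. No treatment, genotype or tissue was contrasted, so levels are descriptions with an SD over n = 2. The labels number the libraries as biological replicates 1 and 2 from separately numbered females, yet give both the same donor identifier, so the SD measures the spread between these samples, which may be technical.

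Kinase II assembles into large rings of subunits that can be drawn from any of its 4 genes. Calcium-loaded calmodulin opens each subunit, and neighbouring subunits then phosphorylate each other, which keeps the enzyme active after calcium falls and underlies its known part in synaptic plasticity. Neurogranin holds calcium-free calmodulin near the membrane through an IQ motif and lets it go when calcium rises. Kinase IV is a mostly nuclear kinase that phosphorylates the transcription factor CREB. In rodent forebrain Camk2b is known to be expressed before Camk2a, which climbs during postnatal maturation.

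Annotated genes held 28844674 expected counts in replicate 2 and 29310533 in replicate 1. All 5 excitatory neuron markers were detected, meaning at least 1 TPM, a length-corrected share of the library's transcripts, in both libraries, with a summed level of 515 TPM in replicate 2 and 496 TPM in replicate 1. All listed markers of inhibitory neurons, astrocytes, microglia and endothelium were detected too, as were 2 of 3 of oligodendrocytes. Of markers of other brain regions, all 3 of striatum were detected, with a summed level of 35.1 TPM in replicate 2 and 32.5 TPM in replicate 1, as were both of thalamus, at 9.20 and 11.4 TPM. None of 3 cerebellar markers was detected, and the hindbrain gene Hoxb3 was at 0 counts. The libraries differed in markers of choroid plexus and blood. The 3 choroid plexus markers summed to 3.21 TPM in replicate 2 and 211 TPM in replicate 1. Only Ttr was detected among them, at 1.94 and 206 TPM. Folr1 was at 0.69 and 4.13 TPM and Kl at 0.58 and 0.75 TPM. The 2 haemoglobin genes summed to 41.3 and 324 TPM. The part of these differences in the values that follow was not tested. In tissue RNA, fewer cells of a type and less RNA per cell cannot be told apart.

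All 10 genes were detected, against 27.6% of all annotated genes and 59.6% of protein-coding genes. Of the 10, 9 lay above the median of detected protein-coding genes, 17.1 TPM. Nrgn ranked 182 and Camk2b 188 among the 13124 of these on nuclear chromosomes, over which that median was taken. The lowest was Camkk1, at rank 7231. Levels per length, as mean TPM of the first deposited table, fell into steps. Nrgn and Camk2b stood at 305 and 298 TPM, then Camk2a, Camk2n2 and Camk2g between 94.0 and 113.9 TPM, then Camkk2, Camk4, Camk2n1 and Camk2d between 48.0 and 62.3 TPM, and Camkk1 last at 14.5 ± 0.304 TPM. The ranges of Nrgn and Camk2b overlapped in this table. Every other neighbouring pair in the order had ranges that did not overlap. A second deposited table, made directly from the reads, kept Nrgn and Camk2b at the top and Camkk1 at the bottom. The middle levels were graded there and not in the same steps. Camk2a had 177 TPM, Camk2g 156, Camk2n2 128, Camk4 109, Camkk2 101, Camk2d 81.3 and Camk2n1 80.9 TPM. There Camk2g stood above Camk2n2, and the ranges of Camk4 and Camkk2 overlapped, as did those of Camk2d and Camk2n1. With 2 libraries of 1 kind, no likeness of pattern across samples could be measured, so no other gene is named for one.

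**Figure D1:**
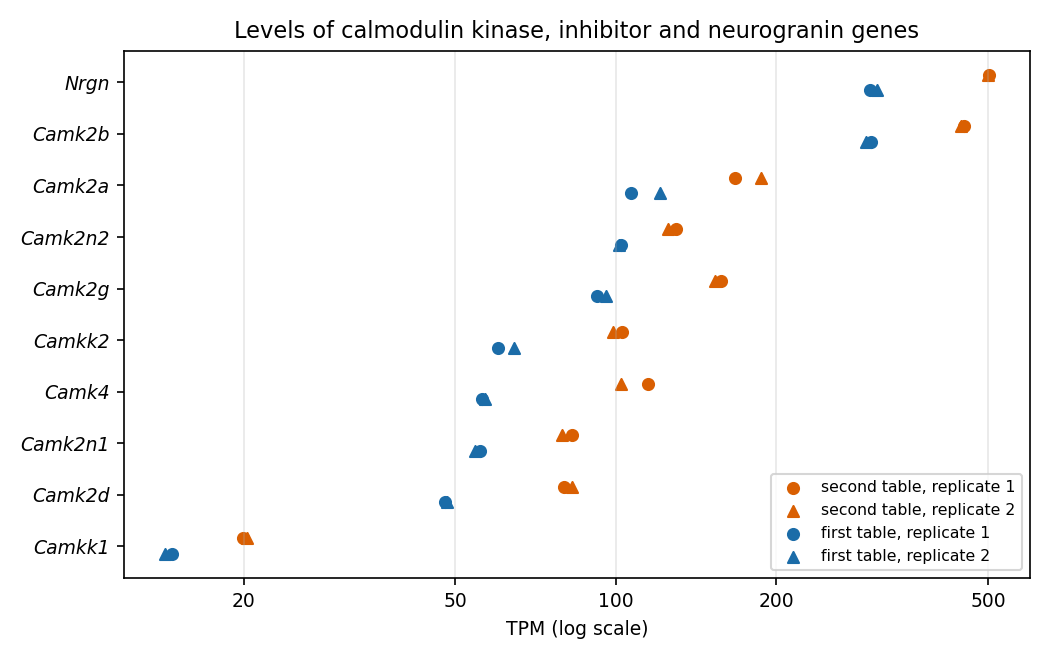
TPM on a log scale of each of the 10 genes, with 1 point per library (circle or triangle) in the second deposited table (orange) and the first (blue). Points of the libraries nearly coincide, Nrgn and Camk2b stand at the right and Camkk1 at the left, and the second table lies to the right of the first for all 10 genes.

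Among the kinase II subunits, Camk2b (chr11:5969644-6066362, minus strand, GENCODE M21 on GRCm38, the build of all positions given here) was the most abundant. It had 295 TPM in replicate 2 and 302 TPM in replicate 1, a mean of 298 ± 4.99 TPM (SD, n = 2). Camk2a, the subunit that dominates adult forebrain, had 121 and 107 TPM in replicates 2 and 1, a mean of 113.9 ± 10.3 TPM. The lower Camk2b library therefore held over double the Camk2a level of the higher Camk2a library. Camk2g (chr14:20734875-20794088, minus strand) had 95.7 TPM in replicate 2 and 92.2 TPM in replicate 1. Camk2d (chr3:126596302-126846326, plus strand), best known as the main subunit of heart muscle, had 48.1 TPM in replicate 2 and 47.8 TPM in replicate 1. Neither Camk2g nor Camk2d varied by more than a few percent between libraries.

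Of the summed Camk2 level in the second table, 862 ± 8.05 TPM (SD, n = 2), Camk2b took 52.0% ± 1.02, Camk2a 20.5% ± 1.41, Camk2g 18.0% ± 0.551 and Camk2d 9.43% ± 0.159. In the first table, of 554 ± 8.06 TPM, Camk2b took 53.8% ± 1.68, Camk2a 20.5% ± 1.56, Camk2g 17.0% ± 0.199 and Camk2d 8.66% ± 0.0787. The summed level differed between the tables, and the order of the 4 subunits was the same in both. Within a library, gene pairs were called apart when the log2 ratio of TPM + 1 was 1 or more in absolute value and had an equal sign in each library, a rule met by 64.9% of all pairs of detected nuclear protein-coding genes. It was met by 7 of 12 pairs of the genes studied here, a share near that background. Camk2b over Camk2a had a log2 ratio of 1.28 in replicate 2 and 1.49 in replicate 1. Camk2b exceeded Camk2g by 1.66 ± 0.06 and Camk2d by 2.61 ± 0.03, and Camk2a exceeded Camk2d by 1.23 ± 0.12 on the same log2 scale. Camk2a over Camk2g was only 0.27 ± 0.09. Camk2d over Camk2g was -0.96 ± 0.03, just inside the threshold.

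**Figure D2:**
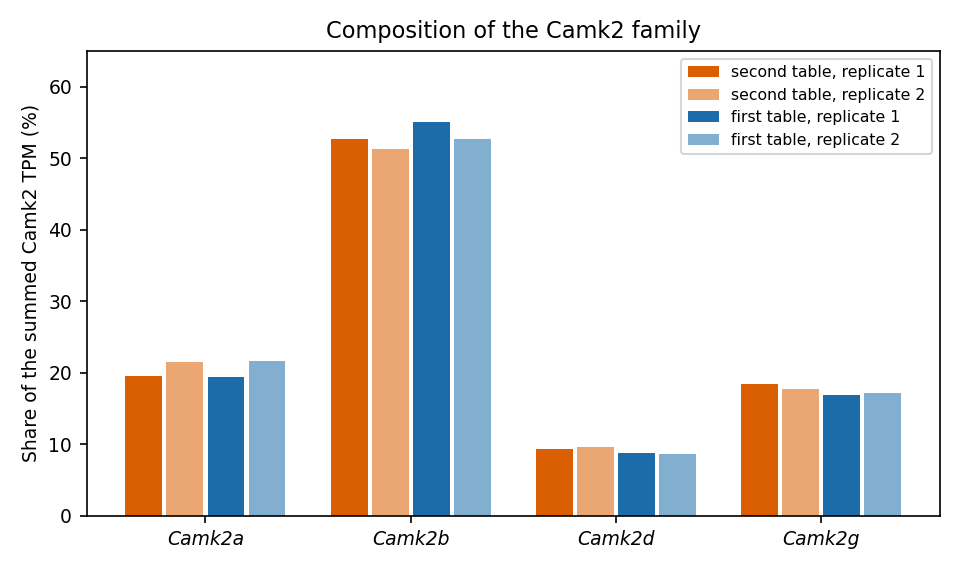
Share of the summed Camk2 TPM held by each of the 4 subunit genes, in percent, with 1 bar per library in the second table (orange) and the first (blue). Camk2b holds between 51.3% and 55.04% in every bar and Camk2d under 10%.

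The inhibitor genes encode short proteins that bind the active kinase II and block it. Camk2n2 (chr16:20619215-20621287, minus strand) was the higher one, with 101.6 TPM in replicate 2 and 102.5 TPM in replicate 1. Camk2n1 (chr4:138454314-138460123, plus strand) had 54.5 TPM in replicate 2 and 55.5 TPM in replicate 1. Camk2n1 over Camk2n2 was -0.88 ± 0.01 on the log2 scale and did not reach the threshold. Together they summed to 24.2% ± 0.837 of the Camk2 level in the second table and to 28.3% ± 0.663 in the first. Camk2n1 alone lay below Camk2b by a log2 ratio of -2.42 ± 0.005. Their coding sequences are printed to show where the paralogs differ. Of 234 aligned bases 168 were identical (71.8%), as were 53 of 78 codons after translation. Capitals mark bases that differ from, or are missing in, the paralog (GENCODE M21 transcripts on GRCm38, stop codon left out; chr4:138455186-138456785, plus strand, for Camk2n1 and chr16:20620176-20621194, minus strand, for Camk2n2, both joined over introns).
Camk2n1 coding sequence: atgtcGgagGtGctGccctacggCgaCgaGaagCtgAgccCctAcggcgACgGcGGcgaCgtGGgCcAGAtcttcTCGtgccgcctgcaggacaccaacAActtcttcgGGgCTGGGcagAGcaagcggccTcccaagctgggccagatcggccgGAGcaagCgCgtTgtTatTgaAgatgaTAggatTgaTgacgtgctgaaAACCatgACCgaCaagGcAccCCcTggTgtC
Camk2n2 coding sequence: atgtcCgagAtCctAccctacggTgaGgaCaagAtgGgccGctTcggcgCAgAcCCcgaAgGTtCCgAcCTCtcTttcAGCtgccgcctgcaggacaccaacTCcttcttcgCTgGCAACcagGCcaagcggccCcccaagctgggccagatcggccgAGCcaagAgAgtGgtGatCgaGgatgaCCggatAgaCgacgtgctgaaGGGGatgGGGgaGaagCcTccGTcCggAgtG

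Nrgn (chr9:37544492-37552904, minus strand) had 309 TPM in replicate 2 and 300.1 TPM in replicate 1, a mean of 305 ± 6.36 TPM. It exceeded Camk2a by a log2 ratio of 1.496 ± 0.113 in the second table and of 1.41 ± 0.10 in the first. Of its 2 transcripts the coding one, Nrgn-201, took 97.4% in replicate 2 and 98.5% in replicate 1 of the first table. The coding sequence of Nrgn-201 is short enough to show whole, with the codons of its calmodulin-binding IQ motif in capitals (chr9:37545956-37552551, minus strand, joined over introns, stop codon left out).
Nrgn coding sequence: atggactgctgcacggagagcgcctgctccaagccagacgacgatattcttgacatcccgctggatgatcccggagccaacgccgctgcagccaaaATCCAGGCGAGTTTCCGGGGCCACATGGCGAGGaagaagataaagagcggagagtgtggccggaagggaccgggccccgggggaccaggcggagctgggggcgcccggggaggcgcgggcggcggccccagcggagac
The capitals cover the pattern of an isoleucine, leucine or valine and a glutamine, any 3 residues, a basic residue and a glycine, any 3 residues and a basic residue.

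Of the genes that switch kinase IV on, Camkk2 was the higher. Camkk2 (chr5:122731170-122779409, minus strand) had 64.5 TPM in replicate 2 and 60.03 TPM in replicate 1, and Camkk1 (chr11:73019008-73042073, plus strand) had 14.3 and 14.7 TPM. Camkk2 exceeded Camkk1 by a log2 ratio of 2.03 ± 0.10 and made up 81.1% ± 1.10 of their sum. Camk4, their substrate, on chromosome 18 like Camk2a, had 56.9 TPM in replicate 2 and 56.0 TPM in replicate 1. Camk4 over Camkk2 was 0.10 ± 0.08 in the second table and -0.14 ± 0.06 in the first, so the sign turned and the pair was apart in neither. Camk2a over Camk4 was 1.08 in replicate 2 and 0.92 in replicate 1. That pair crossed the threshold in replicate 2 alone.

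The 4 Camk2 genes had 67 annotated transcripts, of which 22 took at least 5% of their gene's TPM on average in either table. These shares are the quantifiers' division of short reads among transcripts with common exons, not counts of whole molecules. The transcript with the highest TPM was the same in both libraries and both tables for 3 of the 4 genes, against 65.4% of detected genes with several transcripts. They were Camk2a-203, Camk2b-209 and Camk2d-202. For Camk2g it was Camk2g-203, except in replicate 1 of the second table, where the fragment Camk2g-212 stood at 23.3% against 22.3%. Of the other genes with several transcripts, Camk4-201, Camkk1-201, Camkk2-201 and Nrgn-201 each led in all 4 columns.

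**Figure D3:**
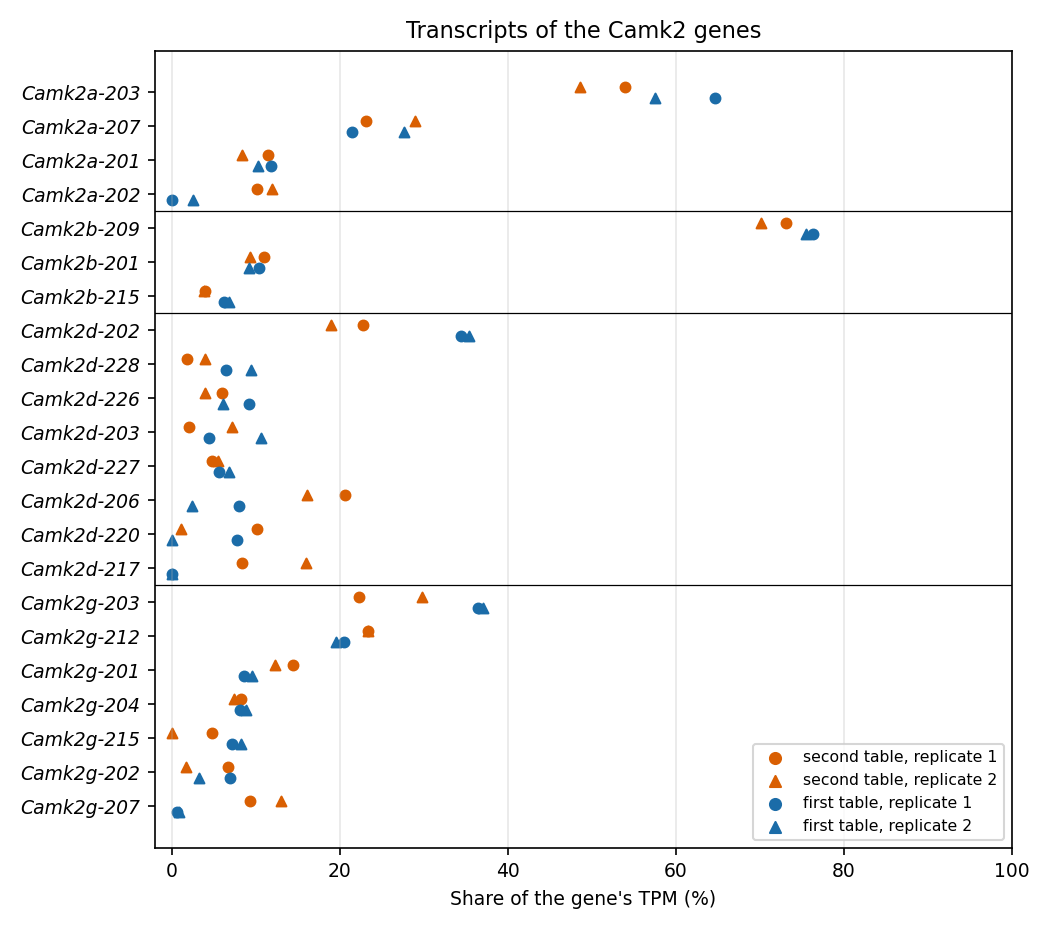
Share of its gene's TPM, in percent, taken by each of the 22 Camk2 transcripts that reached 5% in either table, with 1 point per library in the second table (orange) and the first (blue). Camk2b-209 stands far to the right, while the Camk2d and Camk2g points spread over many transcripts and move between the tables.

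By the share of its leading transcript, Camk2b RNA was the most uniform of the 4 genes in both tables and Camk2d RNA the most divided. Camk2b-209, which codes for the full kinase with 1626 coding bases, took 70.2% in replicate 2 and 73.1% in replicate 1 of the second table, and 75.5% and 76.4% in the first. Camk2b-201, with 1509 coding bases, took 9.19% and 10.3% in replicates 2 and 1 of the first table, and the noncoding Camk2b-215 took 6.86% and 6.22%. The gene's complete coding transcripts together held 86.6% in replicate 2 and 88.9% in replicate 1 of the same table. Kinase II isoforms differ mainly in the linker between the regulatory and ring-forming domains, where short exons are joined or skipped. Exon use was computed as the TPM of transcripts with the exon over the TPM of all transcripts that hold the nearest common coding exon on each side. In Camk2b the 75-base linker exon was in 80.8% ± 0.395 in the second table and 86.8% ± 0.822 in the first. The 72-base exon was in 98.9% ± 0.0568 and 100% in those tables, and the 45-base exon in 86.3% ± 0.329 and 87.4% ± 0.245. The exon before the 72-base one had a shorter 38-base form in 82.6% ± 0.153 and 88.2% ± 1.16, and a 41-base form in the rest. Rarely used were a 33-base exon, in 5.48% in the second table and 0% in the first, and 3 exons of 114 or 129 bases, in between 0.693% and 3.10% in the second table and between 0.253% and 1.77% in the first. The 3 linker exons that most spanning Camk2b RNA carried are printed, in lower case throughout, on the transcribed strand of GENCODE M21 on GRCm38, minus strand, at chr11:5987057-5987131, chr11:5982501-5982572 and chr11:5981070-5981114.
Camk2b exon of 75 bases: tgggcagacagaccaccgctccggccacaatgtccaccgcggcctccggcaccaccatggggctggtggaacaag
Camk2b exon of 72 bases: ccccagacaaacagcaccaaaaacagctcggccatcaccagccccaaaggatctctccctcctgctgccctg
Camk2b exon of 45 bases: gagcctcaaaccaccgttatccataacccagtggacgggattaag

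Camk2a RNA was led by Camk2a-203, at 57.5% in replicate 2 and 64.7% in replicate 1 of the first table. Camk2a-207, an annotated coding fragment of 530 bases, took 27.6% in replicate 2 and 21.5% in replicate 1. Camk2a-201 took 10.2% and 11.8% in those replicates. It carries a 33-base linker exon that Camk2a-203 lacks, and is annotated with 3244 bases in all against 4970. Only these 2 transcripts span that exon, so its use rests on their TPM alone. The part of their difference in length in that value was not tested. That exon was in 16.1% ± 1.91 of the RNA that spans it in the second table and in 15.3% ± 0.234 in the first. It encodes a run of basic residues, known as the nuclear localisation signal of the less common form of this subunit. Camk2a-202 starts inside the gene and has 567 coding bases, too few for the kinase domain. It took 11.9% in replicate 2 and 10.2% in replicate 1 of the second table, against 2.49% and 0.05% in the first. In the first table it rested on 91.2 and 1.54 expected counts, with deposited posterior SDs of 26.9 and 18.3. The tables thus disagreed on whether it was a substantial Camk2a RNA.

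Camk2d RNA was spread over many transcripts. Camk2d-202 led with 19.0% in replicate 2 and 22.8% in replicate 1 of the second table, and with 35.4% and 34.5% in the first. Camk2d-206 took 18.3% ± 3.24 in the second table and 5.21% ± 3.91 in the first. Its count in replicate 1 of the first table was 302 with a posterior SD of 148. Camk2d-228, Camk2d-226, Camk2d-203 and the single-exon, retained-intron Camk2d-227 averaged between 6.24% and 7.93% in the first table. In that table Camk2d-220 took 0% in replicate 2 and 7.73% in replicate 1. The retained-intron Camk2d-217 took 12.2% ± 5.45 in the second table and 0% in the first. The 12 retained-intron transcripts of Camk2d together held 39.7% in replicate 2 and 23.6% in replicate 1 of the second table, and 27.2% and 18.5% in the first. The same class had a median share of 12.6% in the first table over 7629 detected coding genes that have one, which placed Camk2d at percentile 71.1. The share was higher in replicate 2 than in replicate 1 in 70.3% of those genes too. Several annotated loci of unproven transcription lie within the span of Camk2d on its strand, each below 1 TPM in the first table. Whether reads were divided between them and the gene was not tested.

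Camk2d has a pair of mutually exclusive 73-base exons, which encode alternative versions of the same stretch of the kinase domain. The upstream one was in 83.8% ± 0.434 of spanning RNA in the second table and 83.9% ± 1.63 in the first. The downstream one was in 12.8% ± 0.137 and 13.1% ± 0.895. They are printed together, with the bases that differ in capitals, because 50 of 73 bases are the same in both (GRCm38, plus strand, chr3:126770785-126770857 and chr3:126771774-126771846).
Camk2d upstream exon of 73 bases: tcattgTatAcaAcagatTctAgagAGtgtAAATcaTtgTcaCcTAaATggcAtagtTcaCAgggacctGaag
Camk2d downstream exon of 73 bases: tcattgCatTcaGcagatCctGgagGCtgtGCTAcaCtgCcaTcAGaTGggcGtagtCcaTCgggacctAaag

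In the linker of Camk2d, the 42-base exon was in 75.9% ± 3.61 in the second table and 75.2% ± 0.759 in the first, and the 60-base exon in 44.7% ± 1.13 and 30.1% ± 0.913. Complete coding transcripts alone gave 86.6% ± 0.772 and 85.7% ± 2.65 for the 42-base exon, and 51.0% ± 0.682 and 34.3% ± 0.326 for the 60-base exon. The 33-base exon was close to absent, at 2.81% in replicate 2 and 0.757% in replicate 1 of the second table, and 0% and 0.426% in the first. In Camk2g the 33-base exon was in 49.3% ± 1.03 in the second table and 36.8% ± 0.854 in the first. Among complete coding transcripts alone it was in 35.4% ± 2.28 and 20.9% ± 1.62. Its use was thus highest in Camk2g, lower in Camk2a and lowest in Camk2d, with no overlap between these genes in either table. Both are printed, 26 of 33 bases being identical, with the capitals on the codons for lysine and arginine that continue a basic run begun in the exon before (plus strand, chr3:126802937-126802969 for Camk2d, and minus strand, chr14:20747819-20747851 for Camk2g).
Camk2d exon of 33 bases: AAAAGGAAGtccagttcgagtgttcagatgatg
Camk2g exon of 33 bases: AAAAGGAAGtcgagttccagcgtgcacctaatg
The 9 capital bases are the same in both genes, and forms with this exon are known in rodents to carry a nuclear localisation signal.

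Related linker exons were used to unequal degrees among the 4 genes. The Camk2b 45-base exon and the Camk2d 42-base exon were identical at 33 of 42 aligned bases, and both were in most of the RNA that spans them. The Camk2b 72-base exon matched the Camk2d 60-base exon at 42 of 60 bases and the Camk2g 69-base exon at 46 of 67. It was in nearly all Camk2b RNA that spans it, whereas the Camk2g 69-base exon was in 29.4% ± 5.62 in the second table and 22.7% ± 2.47 in the first. Among complete coding transcripts alone the 69-base exon was in 44.6% ± 10.05 and 30.4% ± 3.04. The Camk2b 75-base exon matched the Camk2g 63-base exon at 45 of 63 bases. The 63-base exon was in 38.8% ± 1.25 and 33.9% ± 0.512 of spanning Camk2g RNA in those tables, all of it from transcripts annotated with incomplete ends. The 114-base Camk2g exon was in 20.2% ± 0.426 and 17.1% ± 0.830, and among complete coding transcripts in 6.99% ± 1.59 and 3.76% ± 0.318. The matching Camk2d and Camk2g exons are shown for comparison with the Camk2b lines above (chr3:126808208-126808249 and chr3:126805857-126805916, plus strand, and chr14:20757666-20757728 and chr14:20745792-20745860, minus strand).
Camk2d exon of 42 bases: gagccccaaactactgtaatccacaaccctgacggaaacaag
Camk2d exon of 60 bases: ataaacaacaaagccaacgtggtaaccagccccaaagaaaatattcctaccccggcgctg
Camk2g exon of 63 bases: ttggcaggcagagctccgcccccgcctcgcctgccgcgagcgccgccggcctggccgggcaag
Camk2g exon of 69 bases: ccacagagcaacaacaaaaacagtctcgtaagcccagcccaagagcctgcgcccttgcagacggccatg

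**Figure D4:**
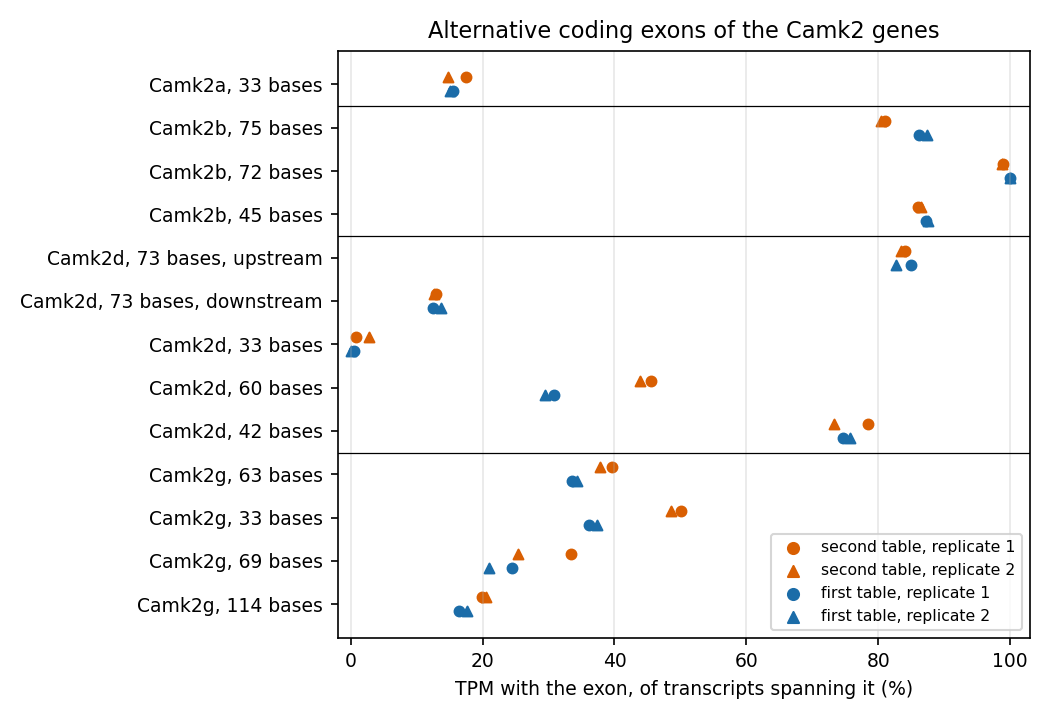
Use of 13 alternative coding exons of the Camk2 genes, as the percent of TPM from transcripts with the exon among transcripts that span it, with 1 point per library in the second table (orange) and the first (blue). The 3 Camk2b exons plotted, which leave out its rarely used ones, sit above 80%, the Camk2d 33-base exon near 0%, and the Camk2d 60-base and Camk2g 33-base exons differ most between the tables.

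Camk2g RNA was led by Camk2g-203, with 29.8% in replicate 2 and 22.3% in replicate 1 of the second table and 37.1% and 36.5% in the first. Camk2g-212, a fragment of 673 bases, took 19.6% in replicate 2 and 20.5% in replicate 1 of the first table. Of the rest, Camk2g-201 took 9.07% ± 0.728, Camk2g-204 8.51% ± 0.502, Camk2g-215 7.69% ± 0.735 and Camk2g-202 5.04% ± 2.63. The noncoding Camk2g-207 took 11.2% ± 2.59 in the second table and 0.695% ± 0.177 in the first. Complete coding transcripts held 46.9% ± 1.10 in the second table and 52.9% ± 1.71 in the first, the lowest share of the 4 genes. Camk4 also differed between the tables. Camk4-201 took 71.8% in replicate 2 and 65.6% in replicate 1 of the second table, against 99.1% and 98.0% in the first. The second table put 15.3% ± 3.67 on transcripts annotated for nonsense-mediated decay, which the first listed at 0. Camkk2-201 took 57.1% in replicate 2 and 58.3% in replicate 1 of the first table.

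The libraries were compared by an exact two-sided binomial test of rounded counts, with adjustment over 18484 genes. A gene was called at an adjusted p under 0.05 with an absolute log2 ratio of 1 or more. None of the 10 genes was called, against 2.92% of all genes tested. At an adjusted p under 0.05 alone, 2 of the 10 passed, against 24.7%, and 5 had an unadjusted p under 0.05, against 34.1%. Camk2b had 19372 counts in replicate 2 and 20659 in replicate 1, a scaled fold of 0.930 (95% interval 0.912 to 0.948, adjusted p = 1.6e-11 by the exact binomial test). Camk2n1 had 4378 and 4686, a fold of 0.926 (0.889 to 0.965, adjusted p = 0.00216 by the same exact test). These intervals cover counting error and compare these libraries only. The scaled count was lower in replicate 2 for 9 of the 10 genes, Camkk2 being the exception at a fold of 1.02, and for 49.9% of all genes tested. That direction did not hold in TPM. There Camk2a, Camk2d, Camk2g, Camk4, Camkk2 and Nrgn were higher in replicate 2, by log2 ratios between 0.01 and 0.18. The largest log2 ratio of counts was 0.12 in size. On the TPM scale the median absolute log2 ratio was 0.04 for the 10 genes and 0.12 for all detected genes. Camk2a had the largest TPM ratio of the 10. Its 7427 counts in replicate 2 and 7533 in replicate 1 gave a fold of 0.977 (0.947 to 1.01), while its TPM was higher in replicate 2 by 0.18 on the log2 scale. Its deposited effective length was 3315 bases in replicate 2 and 3640 in replicate 1, beside the larger share of the short fragment Camk2a-207 in replicate 2.

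**Figure D5:**
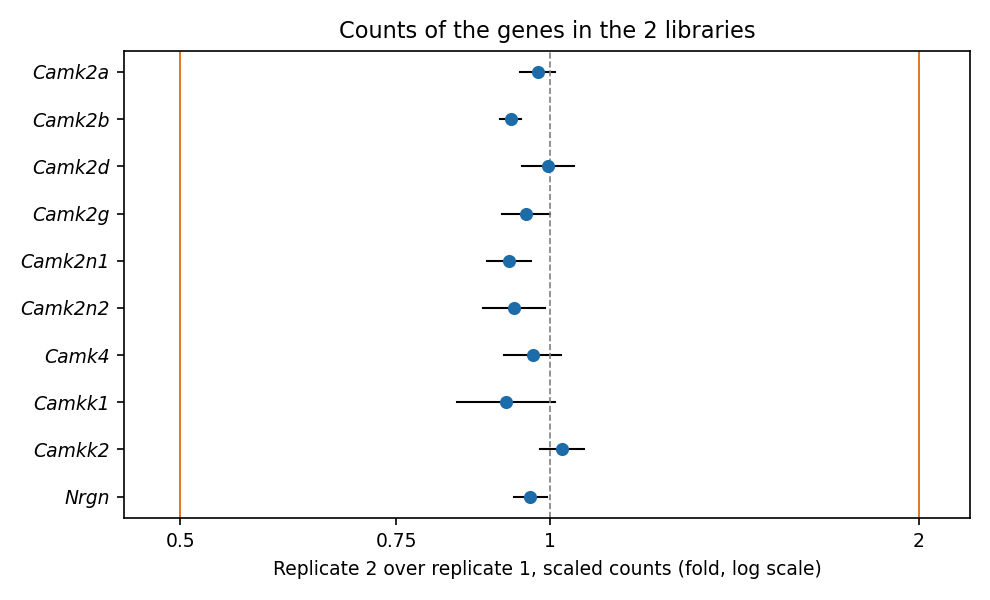
Fold of scaled counts, replicate 2 over replicate 1, on a log scale, with exact 95% intervals for counting error. The dashed line is equality and the orange lines mark the threshold of a log2 ratio of 1 in either direction, from which all 10 genes stay far.

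The tables read the same libraries, so their difference is one of processing. TPM was higher in the second table over all detected genes, with a median log2 ratio, second over first, of 0.53, and of 0.66 for the 10 genes. None of the 10 reached a ratio of 1 in size, against 10.6% of detected genes. Camk4 came closest, with 109 ± 8.74 TPM in the second table and 56.4 ± 0.651 TPM in the first, a log2 ratio of 0.93. In replicate 1 alone it was 1.02. Camk2n2 had the smallest ratio, 0.32, below the median over all detected genes, with 128 ± 2.79 and 102 ± 0.636 TPM. It also had fewer counts in the second table, 1787 in replicate 2 and 1880 in replicate 1, against 2239 and 2372 in the first. The gene Gm49333 overlaps Camk2n2 on the other strand and had 51.5 and 113 counts in the second table, against 0 and 5.76 in the first. Whether the counting used strand is not given in the sources used here. On TPM rescaled over nuclear protein-coding genes the ratios lay between -0.36, for Camk2n2, and 0.26, for Camk4. Camk2n2 thus had the largest ratio in size on that scale. The direction thus turned on that scale for some of the 10, Camk2b among them at -0.09.

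Of 47 other genes of calmodulin and calcium signalling, 46 were detected, against 59.6% of protein-coding genes. The 47 had a median of 51.2 TPM, beside 78.1 TPM for the 10 genes. Among other kinases of the family, the doublecortin-like kinase Dclk1 had 387 ± 10.6 TPM and Stk33 1.25 ± 0.0990 TPM. The kinase I genes Camk1, Camk1d, Camk1g and Pnck, further substrates of the Camkk products and named after their values were seen, lay between 18.4 and 63.6 TPM. Among phosphatases and their regulators, the calcineurin catalytic subunit Ppp3cb had 174 ± 3.64 TPM, and Ppm1f, a phosphatase that acts on kinase II, 11.2 ± 2.30 TPM. Among IQ-motif proteins like neurogranin, the growth cone gene Gap43 had 746 ± 26.8 TPM, over double the Nrgn level. Iqcj, the undetected gene, had 1.23 ± 0.375 TPM, with 1.49 in replicate 2 and 0.96, just under the cut, in replicate 1. Of kinase partners and substrates, the microtubule-destabilising Stmn1 had 1713 ± 16.5 TPM and the AMP-activated kinase subunit Prkaa1 9.67 ± 0.615 TPM. Of calmodulin-dependent enzymes, the adenylyl cyclase Adcy1 had 159 ± 4.99 TPM and the phosphodiesterase Pde1c 3.72 ± 0.0424 TPM. None of the 47 was called between the libraries, against 2.92% of all genes tested. At an adjusted p under 0.05 by the exact binomial test, 7 were higher in replicate 2, against 12.6% of all genes tested, and 13 were lower, against 12.1%.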

How the data were processed

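Members and gene lists were chosen with earlier results of these data known. Per the file headers, the first table, with the column names of RSEM, holds expected counts (reads common to several features were divided among them by the authors' program), TPM scaled by effective length, and, as deposited for transcripts, the percent of the gene's TPM. The second table, with the column names of kallisto, gives estimated counts and TPM per transcript as deposited, and was summed per gene. The text files deposited with the tables name mm10 and GENCODE M21, and say that the first table came from reads aligned to the transcriptome and the second directly from reads. Neither program nor version is given in the sources used here. Deposited posterior SDs of counts measure shared reads. Rows outside annotated genes held 0.346% of expected counts in replicate 2 and 0.330% in replicate 1 and stayed out of tests.

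Genes whose counts summed to 20 or more were tested between libraries by the exact two-sided conditional binomial test on rounded counts, with TMM factors of 1.01 in replicate 2 and 0.988 in replicate 1 (edgeR 4.0.16, R 4.3.3), Benjamini-Hochberg adjustment and 0.5 added to counts in log2 ratios. It covers counting error only, as do its 95% Clopper-Pearson intervals, and was tested on simulated data. Pair and table ratios used a pseudocount of 1. DESeq2 1.42.0 gave alternative size factors. Exon use counted annotated transcripts of the first or second table, and complete Camk2 transcripts had at least 1000 coding bases. Sequences came from GENCODE M21 transcripts, aligned with Biopython 1.88. Python 3.11.15, scipy 1.17.1 and pandas 2.3.3 did the rest. Named were all 10 genes, Camk2 transcripts at 5% or more in either table, and the highest and lowest gene of each role; one role is not reported here. CAST/EiJ variants were not modelled.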

Additional observations from a re-analysis of the deposited data

How the results depend on the processing

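All 10 genes stayed detected in the second table, at a TPM of at least 5, on TPM over nuclear protein-coding genes, with posterior mean TPM and with each replicate left out. Of the 47 other signalling genes, 47 were detected in the second table and without replicate 1. The number was 46 without replicate 2 and 44 at a TPM of at least 5. None of the 10 genes was called between the libraries with DESeq2 size factors, raw library totals, no filter on low counts or the second table. With an adjusted p alone, 2 of the 10 passed. Leaving out a library leaves 1, so no value exists there. With each replicate left out, the genes apart between the tables numbered between 0 and 1, the one being Camk4 without replicate 2. The cause was not tested. The 7 gene pairs apart became 8 with transcripts annotated protein_coding only, where Camk2d over Camk2g was -1.12, and 8 without replicate 1, where Camk2a over Camk4 was 1.08. The other 82 of the 84 values of single pairs stayed on their side of the threshold. Alternatives added after seeing the data concerned levels and exons. The level of each of the 10 genes moved by more than its SD in the second table and on TPM over nuclear protein-coding genes, and 6 did so with posterior mean TPM. A restriction to complete coding transcripts lowered the use of the Camk2g 33-base and 114-base exons and raised that of its 69-base exon, to the values given beside them. No paired analysis was possible because both libraries form 1 group. With n = 2, an SD is a rough measure of spread. Counting precision at this depth is given only for whole genes, not for transcript or exon shares.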
